A study of Mus musculus with 2 samples.

Results

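Calcineurin, NFAT and CaMK are the calcium sensing signals that set the fibre type programme of skeletal muscle, and 10 of their genes were compared between *Gde5* skKO and WT mice in gastrocnemius (GAS) muscle. The genes were chosen by name, and every array probe that is not a control and whose gene name is one of them or an older alias (Dscr1 for Rcan1, Dscr1l1 for Rcan2) was taken. These were 24 probes of 41112, for 10 genes of the 27570 gene names on the arrays. Of the 24 probes, 21 stood well above background on each array in 1 channel or more, and each of the 10 genes had such a probe. The 3 others read Nfatc2 (2 probes) and Nfatc3 (1 probe).

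GDE5 (Gpcpd1) splits glycerophosphocholine into choline and glycerol 3-phosphate. The *Gde5* skKO mice were males of 15 weeks on a normal diet and a C57BL/6 background, in which human α-skeletal actin (HSA)-Cre removes a floxed exon of *Gde5* from muscle fibres, so that other cells of the muscle keep the gene. The control mice are labelled wild-type, and the methods give *Gde5* flox/flox littermates without Cre as the controls of the other experiments with this line. If these served here too, effects of Cre and of the deletion on transcripts cannot be told apart. The paper found muscle contraction, choline metabolites and phosphatidylcholine unaffected by HSA-Cre alone, and names no transcripts in that check. The series describes 5 mice of each genotype, and the labels do not say whether their RNA was pooled. Labelled cRNA made from total RNA was hybridized to 2 Agilent whole genome arrays read in both dyes, on 1 slide and in 1 scan. Both genotypes were on each array, *Gde5* skKO being in Cy5 on array 1 and in Cy3 on array 2. The labels do not say whether both arrays held the same RNA, and they name neither fasting nor glucose injection. The study describes muscle transcripts both after a glucose injection and in fasting, so the mice of these arrays may have been in either state.

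In muscle fibres, calcium bound to calmodulin activates the phosphatase calcineurin, a dimer of a catalytic A subunit and a regulatory B subunit. Calcineurin removes phosphates from NFAT factors, which then enter the nucleus and, together with MEF2, favour slow fibre genes. Calmodulin also activates the CaMK kinases, which release MEF2 from class II histone deacetylases. RCAN proteins bind calcineurin and restrain it, and one form of Rcan1 is itself a classic NFAT target, so its mRNA is widely used as a readout of the pathway.

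All values below are Feature Extraction values. A signal is the processed signal of a channel in arbitrary units, and a log2 ratio is that of *Gde5* skKO over WT on one array with the error that the software gives to the spot. A probe was called when the software's p-value was under 0.05 on both arrays with the same direction, and a gene was represented by its brightest probe. That p-value covers the error of single spots and not the spread between mice, for which no test was possible, and with 2 arrays the precision of a ratio is limited. Since whole muscle was used, less RNA per fibre and fewer cells of a kind cannot be told apart.

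On the arrays *Gde5* itself had ratios below 0 at all 4 of its probes and was called lower at 3 of them, with log2 ratios from -2.59 to -3.29. These 3 probes gave the direction that the labels state, and whether any of them lies in the deleted exon cannot be given from the files. The fourth probe, which is not tied to a RefSeq transcript, had ratios of -0.05 on array 1 and -0.47 on array 2. It is the brightest, so that by the brightest probe *Gde5* was not called, with a mean of -0.26. All 8 skeletal muscle markers listed, among them Acta1, Ckm and Myh4, were above background, and none of them was called.

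Of the 10 genes, Ppp3r1 and Camk2a were called lower in *Gde5* skKO muscle, none was called higher and 8 were not called. Among the 13579 genes measured, 1.73% were called lower and 1.58% were called higher. The mean log2 ratios of the 8 other genes lay between -0.08 and 0.33, and the median over the 10 genes was 0.03, against 0.01 over all measured genes. Signals of the genotypes did not overlap for 4 of the 10 genes at the brightest probe. These were Ppp3r1 and Camk2a, where both *Gde5* skKO signals were below both WT signals, which was so for 17.8% of all genes, and Rcan1 and Camk2b, where both were above, which was so for 21.1%. Counted by probe, 3 probes of Ppp3r1 and 1 of Camk2a were called lower and no member probe higher, while 1.58% of the 19103 measured probes were called lower and 1.49% higher.

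**Figure D1:**
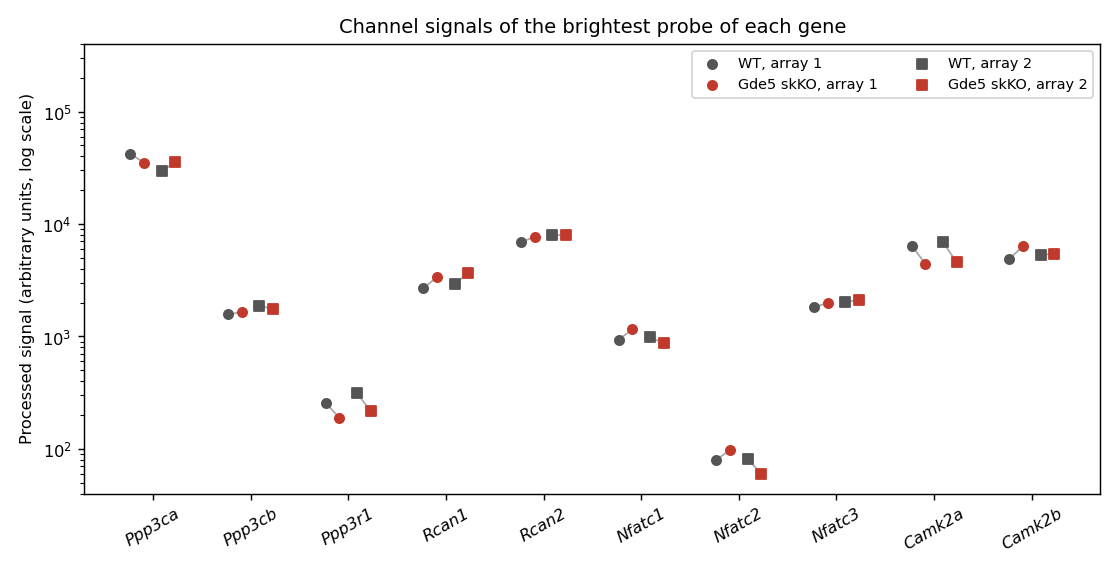
Processed signal (arbitrary units, log scale) of the brightest probe of each of the 10 genes, with WT in grey and *Gde5* skKO in red, circles for array 1, squares for array 2 and a line joining the channels of an array. The lines of Ppp3r1 and Camk2a fall on both arrays. Those of Rcan1, Rcan2, Nfatc3 and Camk2b rise on both, those of Rcan2 and Camk2b by very little on array 2. Ppp3ca, Ppp3cb, Nfatc1 and Nfatc2 go opposite ways on the arrays. Signals of different genes are not comparable, since each depends on its probe.

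Ppp3r1 encodes calcineurin B, the regulatory subunit that binds calcium and without which the catalytic subunit is inactive. It has 3 probes, on the plus strand of chromosome 11 (assembly mm8), all tied to its RefSeq transcript. The brightest (chr11:17094237-17094688, ends on either side of a gap in the genome) had WT signals of 256 on array 1 and 314 on array 2, and *Gde5* skKO signals of 189 and 216. Both *Gde5* skKO signals were the lower, and the log2 ratios were -0.44 ± 0.22 on array 1 and -0.54 ± 0.22 on array 2 (error of the spot), a mean of 71.3% of the WT level. Its Feature Extraction p-values were 0.0497 and 0.0151, so the call on array 1 lies just inside the threshold.

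The other probes of Ppp3r1 went the same way. The probe furthest upstream of the 3 (chr11:17093001-17093060) had WT signals of 258 and 296 against *Gde5* skKO signals of 163 and 199, with log2 ratios of -0.67 ± 0.23 and -0.57 ± 0.22. The probe furthest downstream (chr11:17100321-17100380) had WT signals of 111 and 148 against 55.3 and 59.2, with log2 ratios of -1.01 ± 0.29 and -1.32 ± 0.29. Thus each of the 3 probes was called lower and the genotypes overlapped at none of them. The size differed between the probes, from 44.6% to 71.3% of the WT level, and the largest difference was at the dimmest probe. With the normexp background model and loess in limma the probes were closer together, with mean log2 ratios of -0.27, -0.36 and -0.29, each ± 0.10 (SE). In limma's moderated test they had unadjusted p-values of 0.0263, 0.00563 and 0.0182, and after Benjamini-Hochberg adjustment over all 19103 probes of 0.494, 0.254 and 0.428. At the unadjusted threshold 4.02% of the probes were lower and 4.08% were higher by that test.

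**Figure D2:**
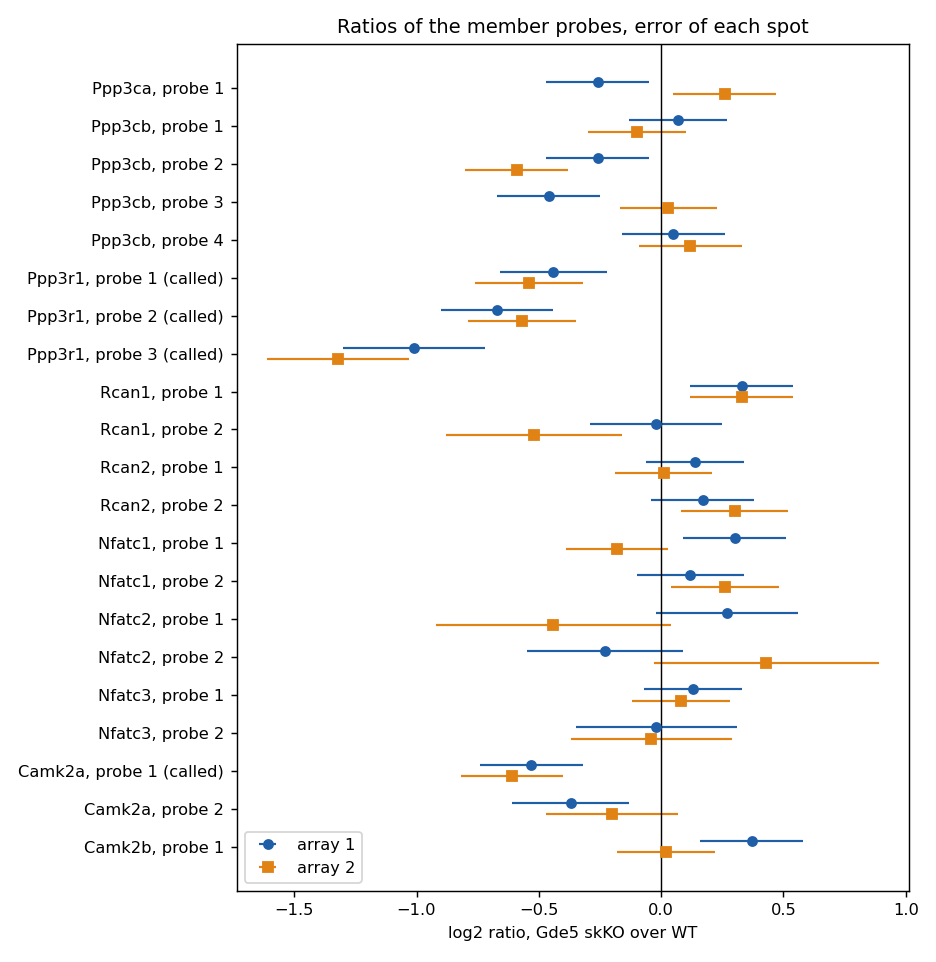
log2 ratio of *Gde5* skKO over WT (horizontal axis) for the 21 member probes well above background, numbered within a gene from the brightest, with array 1 as blue circles and array 2 as orange squares. Bars are the Feature Extraction error of the spot. The 3 probes of Ppp3r1 lie left of 0 on both arrays, as do both probes of Camk2a, and the 4 probes of Ppp3cb are spread around 0.

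The promoter window of Ppp3r1 is given because it is the member called at all its probes. It runs from 250 bases before to 50 bases after the start of the gene, at chr11:17159048-17159347 on the plus strand of GRCm38.p6, from RefSeq, and would show in capitals the NFAT core GGAAA on either strand. None was found in these letters, while 61.3% of the 32851 promoter windows of the same length hold at least 1. G and C make up 70.7% of this window, against a median of 52.7% over all windows. The part of this composition in the missing core was not tested.
Ppp3r1: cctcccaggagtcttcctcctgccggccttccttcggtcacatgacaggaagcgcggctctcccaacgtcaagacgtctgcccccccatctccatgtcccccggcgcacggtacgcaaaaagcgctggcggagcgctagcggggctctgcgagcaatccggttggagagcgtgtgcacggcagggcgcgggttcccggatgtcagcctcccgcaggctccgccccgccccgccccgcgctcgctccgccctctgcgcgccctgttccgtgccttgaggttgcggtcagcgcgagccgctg

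The catalytic subunits were not called. Ppp3ca encodes the α form of calcineurin A and has 1 probe, with WT signals of 42000 on array 1 and 29600 on array 2 and *Gde5* skKO signals of 35200 and 35300. The genotypes overlapped, and the log2 ratios of -0.26 ± 0.21 and 0.26 ± 0.21 had opposite directions once turned, which means that Cy3 was the brighter dye on both arrays. With normexp and loess the arrays stood further apart, at -0.78 and 0.55. The mean of 0.00 therefore says little about Ppp3ca.

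Ppp3cb encodes the β form and has 4 probes, whose mean log2 ratios ran from -0.43 to 0.08. The brightest had WT signals of 1570 and 1880 and *Gde5* skKO signals of 1650 and 1750, which overlapped. The probe furthest downstream (chr14:19288595-19288654, minus strand, mm8) was the lowest, with log2 ratios of -0.26 ± 0.21 and -0.59 ± 0.21, and passed the threshold on array 2 alone. A neighbouring probe (chr14:19290139-19290198) had ratios of -0.46 ± 0.21 and 0.03 ± 0.20 and passed on array 1 alone. Both of these are tied to the RefSeq transcript, while the brightest and the fourth, at 0.05 and 0.12, are not tied to one. The probes of Ppp3cb therefore disagree, and no level of the gene as a whole can be given. Ppp3cc, the γ form, was not called either, at -0.05 and -0.08.

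Rcan1, the calcineurin regulator that NFAT induces, was not called. Its brightest probe (chr16:92281377-92281436, minus strand, mm8) had WT signals of 2690 on array 1 and 2930 on array 2 and *Gde5* skKO signals of 3380 and 3690. Both *Gde5* skKO signals were above both WT signals, and the log2 ratios of 0.33 ± 0.21 and 0.33 ± 0.21 were nearly equal, but the Feature Extraction p-values were 0.111 and 0.108. The ratio with normexp and loess was 0.30 ± 0.10 (SE), with an unadjusted p of 0.0146 in limma's moderated test and an adjusted p of 0.392. The other probe lies further upstream, with ends on either side of a gap (chr16:92284857-92286153), and its ratios were -0.02 ± 0.27 and -0.52 ± 0.36. Its WT signals of 80.2 and 64.4 and *Gde5* skKO signals of 79.2 and 45.0 overlapped. The probes of Rcan1 thus went different ways, neither of them past the threshold, and the mean log2 ratio over both was 0.03.

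RefSeq lists 2 promoter windows for Rcan1 on the minus strand of chromosome 16 of GRCm38.p6, shown because the mRNA of this gene is the usual readout of NFAT activity. The downstream one is chr16:92400029-92400328 and the upstream one chr16:92466120-92466419, with the NFAT core GGAAA in capitals on either strand.
Rcan1 downstream: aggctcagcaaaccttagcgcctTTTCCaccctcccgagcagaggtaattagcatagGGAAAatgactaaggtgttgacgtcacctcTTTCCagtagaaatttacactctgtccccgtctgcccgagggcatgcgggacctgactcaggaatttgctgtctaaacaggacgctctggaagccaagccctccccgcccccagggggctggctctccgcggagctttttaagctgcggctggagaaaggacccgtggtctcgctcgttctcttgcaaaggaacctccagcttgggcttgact
Rcan1 upstream: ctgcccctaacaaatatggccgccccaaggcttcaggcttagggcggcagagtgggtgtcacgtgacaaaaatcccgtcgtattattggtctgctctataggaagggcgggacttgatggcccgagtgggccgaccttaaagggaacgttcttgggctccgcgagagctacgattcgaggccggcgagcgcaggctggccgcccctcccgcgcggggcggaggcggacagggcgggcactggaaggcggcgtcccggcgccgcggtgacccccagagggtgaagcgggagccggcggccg
The downstream window holds the core 3 times and the upstream window none, while 9.42% of all windows hold it 3 times or more. G and C make up 56.3% of the downstream window and 67.7% of the upstream one. Which of these starts a probe reads cannot be given from these files, since the probe positions are on mm8. RefSeq windows were found for 7 of the 10 genes, 12 in all, and 6 of the 12 hold the core, against 61.3% of all windows. None of the 12 matched the MEF2 motif, which 3.19% of all windows hold.

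Rcan2, a second calcineurin regulator that is abundant in muscle and brain, differed little. Its brightest probe had WT signals of 6940 and 7960 and *Gde5* skKO signals of 7670 and 7990, which overlapped, with log2 ratios of 0.14 ± 0.20 and 0.01 ± 0.20. The other probe was at 0.17 ± 0.21 and 0.30 ± 0.22. All 4 of these ratios were above 0 and none passed the threshold. Rcan3 was at -0.02 and -0.03.

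The NFAT factors were not called at any probe. Nfatc1, a calcineurin dependent factor of slow fibres, had WT signals of 936 and 984 and *Gde5* skKO signals of 1160 and 868 at its brightest probe. These overlapped, and the log2 ratios of 0.30 ± 0.21 and -0.18 ± 0.21 had opposite directions. Its other probe was at 0.12 ± 0.22 and 0.26 ± 0.22. Nfatc3 had WT signals of 1820 and 2010 and *Gde5* skKO signals of 1990 and 2130, with log2 ratios of 0.13 ± 0.20 and 0.08 ± 0.20, and its second measured probe was at -0.02 and -0.04.

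Nfatc2, best known from lymphocytes, was near the limit of the arrays. Its brightest probe had WT signals of 80.3 and 81.6 and *Gde5* skKO signals of 97.1 and 60.1, and log2 ratios of 0.27 ± 0.29 and -0.44 ± 0.48. The second was at -0.23 ± 0.32 and 0.43 ± 0.46. The errors of these probes are the largest of the measured members, up to 0.48, and the 2 probes not above background had errors between 1.54 and 2.08. A small difference in Nfatc2 was therefore not detectable at this signal. Of 10 leukocyte markers, 6 were not above background, among them Cd3d, Cd3g and Lck, and none was called. Nfatc4 was not called either, at 0.18 and 0.12.

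Camk2a encodes the α subunit of CaMKII and, from an internal start, αKAP, an anchoring protein without kinase activity that skeletal muscle makes. The brightest probe (chr18:61113234-61113293, plus strand, mm8) had WT signals of 6430 on array 1 and 6930 on array 2 and *Gde5* skKO signals of 4440 and 4560. Both *Gde5* skKO signals lay below both WT signals. The log2 ratios were -0.53 ± 0.21 and -0.61 ± 0.21, a mean of 67.3% of the WT level, with Feature Extraction p-values of 0.0109 and 0.00415. With normexp and loess the ratio was -0.52 on both arrays, with an unadjusted p of 0.000616 in limma's moderated test and an adjusted p of 0.0734 over all probes. At their brightest probes neither Camk2a nor Ppp3r1 was called at a Feature Extraction p under 0.01 on both arrays, or with a fold of at least 1.5 besides. The dimmest probe of Ppp3r1 passed both, with Feature Extraction p-values of 0.000425 and 6.59e-06 and a fold of 2.24. Its mean with normexp and loess was only -0.29. The probe of Ppp3r1 furthest upstream passed the fold, at 1.54.

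The second probe of Camk2a lies further upstream, with ends on either side of a gap (chr18:61089312-61095368), and was dim. Its WT signals were 124 and 96.7 and its *Gde5* skKO signals 96.3 and 84.2, so both *Gde5* skKO signals were below both WT signals, though the value of 96.3 lay just under 96.7. The log2 ratios of -0.37 ± 0.24 and -0.20 ± 0.27 had the same direction and were not called, and with normexp and loess their mean was -0.06 ± 0.10 (SE). Both probes are tied to RefSeq transcripts. Which share of the signal of the bright probe comes from the kinase and which from αKAP was not tested. Since Camk2a is also a major transcript of neurons, nerve markers are given beside it. Of 10 of these, 7 were not above background, among them Snap25, Syt1, Nefl and Nefm, and the summed signal of the 3 others was 1280 and 1300 in WT and 1170 and 1130 in *Gde5* skKO, with none called.

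Camk2b encodes the β subunit of CaMKII, and its only probe (chr11:5869835-5869894, minus strand, mm8) had WT signals of 4920 and 5340 and *Gde5* skKO signals of 6340 and 5410. Both *Gde5* skKO signals were above both WT signals, but by little on array 2, and the log2 ratios were 0.37 ± 0.21 and 0.02 ± 0.20. Camk2b was not called, and with normexp and loess its mean ratio was 0.18 ± 0.10 (SE). The other CaMKII subunits were not called, with mean log2 ratios of 0.12 for Camk2d and 0.03 for Camk2g. Camk2a was thus the CaMKII gene that passed the threshold, while the differences between its ratio and those of the other subunits were not tested.

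**Figure D3:**
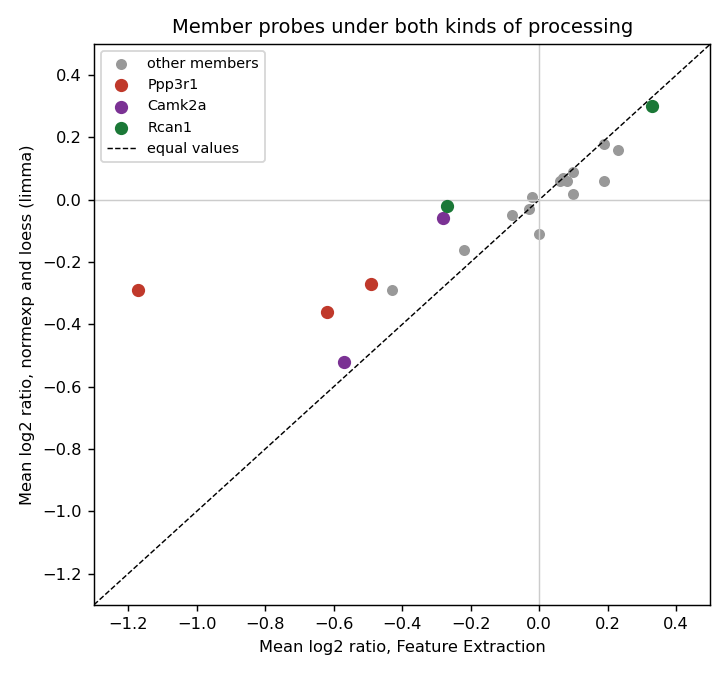
Mean log2 ratio over both arrays of the 21 measured member probes, from Feature Extraction (horizontal axis) and from normexp background correction and loess in limma (vertical axis), with the dashed line for equal values. The bright probe of Camk2a lies near the line at -0.57 and -0.52, and the probes of Ppp3r1 lie above it, the dimmest moving from -1.17 to -0.29.

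The rest of the pathway was taken from a list of 45 further genes, of which 44 were on the arrays and 40 were measured. None of the 40 was called. Their median log2 ratio was 0.00 against 0.01 over all genes, with 10 higher and 8 lower on both arrays, while 29.2% of all genes were higher and 25.3% lower on both. Other proteins that bind calcineurin were the Z-disc calsarcins Myoz1, Myoz2 and Myoz3, with mean log2 ratios between -0.13 and 0.27, the anchors Akap5 and Akap6, at -0.35 and 0.12, and Cabin1 at -0.16. Akap5 went opposite ways on the arrays, at 0.44 and -1.14. Ppp3r2, a second B subunit known from testis, was not above background.

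The 4 measured NFAT kinases had mean log2 ratios between -0.11 and 0.13 and the Homer scaffolds between 0.06 and 0.25. The highest scaffold, Homer2, was at -0.04 as a mean over its 3 probes. Among the calmodulins, which activate both calcineurin and CaMK, Calm3 was at -0.24 on array 1 and -0.48 on array 2, and Calm2 was at -0.14 and 0.19. Nfatc2ip, a partner of NFAT, was at -0.17 and -0.66, but the mean over its 2 probes was 0.08. Higher on array 2 were Nfat5, at -0.24 on array 1 and 0.71 on array 2, and the CaMKII inhibitor Camk2n2, at 0.09 and 0.63. Myoz2 was likewise at -0.01 and 0.56. Nfat5, Camk2n2 and Myoz2 passed the threshold on array 2 alone, as did Akap5, Calm3 and Nfatc2ip in the lower direction. The CaMK kinases Camkk1 and Camkk2 were at -0.07 and -0.05 in the mean. Downstream of CaMK, the 3 measured class II histone deacetylases lay between -0.01 and 0.26 and the MEF2 factors between -0.18 and 0.13. The highest deacetylase, Hdac7, was at 0.01 as a mean over its 2 probes. The lowest MEF2 factor, Mef2a, was at 0.08 on array 1 and -0.45 on array 2, where alone it passed the threshold. The mean over the 3 probes of Mef2a was -0.64. Camk4, Camk1d and Hdac9 were not above background.

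**Figure D4:**
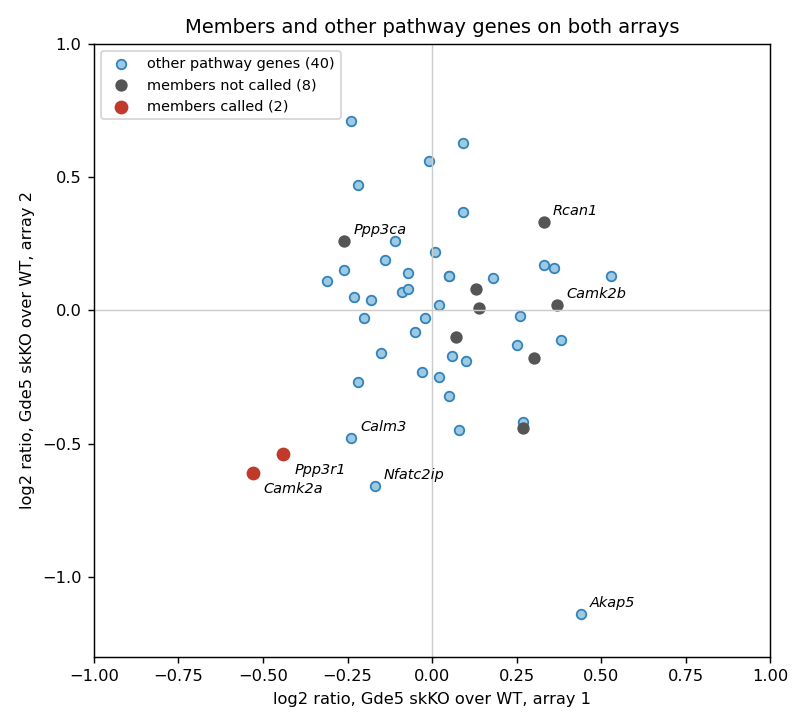
log2 ratio of *Gde5* skKO over WT on array 1 (horizontal axis) and array 2 (vertical axis) for the 10 members and the 40 other measured pathway genes, each by its brightest probe. The called Ppp3r1 and Camk2a lie in the lower left, Rcan1 is higher on both arrays at 0.33 and 0.33, and Akap5 and Ppp3ca go opposite ways on the arrays.

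Some slow fibre genes, which this pathway controls in muscle, and some markers of other tissues were called in the same RNA, against 1.58% of all genes called higher and 1.73% called lower. Of 10 measured slow fibre genes, Myl2, Tnni1 and Casq2 were called higher and none lower, with a median of 0.38, and of 12 fast fibre genes none was called. In limma's moderated test the adjusted p-values of these 3 were 0.0117 for Myl2, 0.0587 for Tnni1 and 0.108 for Casq2. Myh7, the slow myosin, was not called, at 0.30 and 0.36. By qPCR the paper reports fibre type mRNA in this line to be comparable with that of WT mice. Its fibre type primers are for Myh7, Myh2, Myh1 and Myh4, none of which was called here. They do not cover Myl2, Tnni1 or Casq2. Of 5 measured fat markers, 4 were called lower, namely Adipoq, Plin1, Cfd and Retn, with a median of -0.83, or -0.34 with normexp and loess, and Lep was not above background. Their summed signal was 42900 and 44200 in WT and 42800 and 40500 in *Gde5* skKO. This sum adds probes of unlike brightness and says nothing of the 4 called, and the remaining marker, Fabp4, was at 0.13 and -0.02. Of 3 measured liver markers, Mup1 was called lower at -0.97 and Apoh higher at 0.81, while Alb was at -1.03 and -0.28 and passed on array 1 alone. Apoh was at 0.34 with normexp and loess, and the mean over the 3 probes of Mup1 was -0.44. Apoa1 and Apoa2 were not above background. Of 5 endothelial markers, Kdr was called higher at 0.42, with a mean over its 2 probes of 0.20. The median of the 5 was -0.09, with 2 of them higher and 3 lower on both arrays. The part of other tissues and of the fibre types sampled in the lower Ppp3r1 and Camk2a was not tested.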

How the data were processed

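cRNA made from total RNA of GAS muscle was labelled with Cy3 or Cy5 and hybridized to 2 dye-swapped arrays. The authors extracted the arrays with Agilent Feature Extraction (9.5 per the labels, 9.5.3.1 per the file headers). For every spot the deposited files hold the log10 ratio of red (Cy5) to green (Cy3), computed by the software from dye-normalized signals with the background subtracted, the error of that ratio and a p-value from the error model. The deposited files also hold intensity values of each spot and its local background, and marks of the software for signal well above background, saturation and outliers. The series table, as deposited, holds the same log10 values, rounded and not turned.

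Here ratios were converted to log2, turned by the dyes in the labels so that *Gde5* skKO is over WT, and spots of the same probe were averaged. Of 43379 spots that are not controls, those with outlier marks (164 on array 1 and 200 on array 2) and those whose local background exceeded 2 times the spot (11 and 0) were left out. No spot of a member was saturated. The share of spots well above background was 53.2% and 44.6% for *Gde5* skKO RNA on arrays 1 and 2, and 45.6% and 47.4% for WT RNA. Probes were named through RefSeq by accession (24331), symbol (6295) or synonym (2422), and 8064 kept the name of the array. The arrays were annotated on mm8, of which no gene models were used here.

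Members, gene lists and tests were chosen with earlier results of these data known. The rule for named genes was to name the 10 members with all their probes, *Gde5*, and genes of the lists that were called. Pathway genes that were not called are named as examples chosen after their values were seen. Promoter windows were taken from a RefSeq table for GRCm38.p6.

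limma 3.58.1 (R 4.3.3) gave the alternatives of loess after normexp (offset 50) and of loess alone, and a moderated test. Other alternatives were the series table, other thresholds and filters, other probes, each array alone and the methods' t-test on channel signals. The other steps ran in Python 3.11.15 with pandas 2.3.3, numpy 2.4.6, matplotlib 3.10.9 and scipy 1.17.1, and the calls and fits were tested on simulated data.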

Additional observations from a re-analysis of the deposited data

How the results depend on the processing

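Ppp3r1 and Camk2a were both called with the limma ratios, with loess without background correction, with the series table, with no filter on dim probes, with detection asked of both channels, with the probe chosen by its WT signal and on either array alone. Their direction was lower under each of these. With the ratios of limma and of the series table the p was still that of Feature Extraction, so only the direction was tried there. A gene called on both arrays is called on either array alone by construction. The filters and the choice by WT signal kept the same probes of Ppp3r1 and Camk2a with the same values. These settings therefore could not have changed the calls of the 2 genes. In place of 2 members by the brightest probe, 0 were called at a Feature Extraction p under 0.01 and 0 with a fold of at least 1.5 besides. By limma's moderated test after adjustment 0 were called, by the methods' t-test 1 (Camk2a), and after its adjustment 0. Counting every probe gave 4 calls, all at probes of the same 2 genes. Unadjusted, limma's moderated test called 3, with Rcan1 besides. The log2 ratio of Ppp3r1 as a mean over its probes was -0.76 in place of -0.49, that of Camk2a -0.43 in place of -0.57, that of Rcan1 0.03 in place of 0.33, that of Ppp3cb -0.14 in place of -0.02 and that of Nfatc3 0.02 in place of 0.10.

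Of the other pathway genes, 3 were called in place of 0 by limma's moderated test, unadjusted, 1 by the methods' t-test, and 1 to 7 with 1 array alone. Over all genes, 215 higher and 235 lower became 107 and 127 at p under 0.01, 575 and 581 by limma's moderated test, 39 and 70 after its adjustment, 617 and 571 by the methods' t-test and 0 and 0 after its adjustment. With a fold of at least 1.5 besides, 142 were higher and 170 lower. On a single array 926 to 971 genes were higher and 723 to 910 were lower. A stricter threshold calls fewer genes, and a single array more, by its construction, while for the other tests the cause was not tested.

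Members that were not called changed direction in places. Ppp3cb was at 0.0113 with normexp and loess and in limma's moderated test, and at 0.0076 with loess without background correction, in place of -0.02. On arrays 1 and 2 alone Ppp3ca was at -0.2562 and 0.2553, Ppp3cb at 0.0682 and -0.1044, Nfatc1 at 0.3049 and -0.1807, and Nfatc2 at 0.2746 and -0.4422. Signal near background limits Nfatc2 and the dim probes of Ppp3r1, Camk2a, Rcan1 and Nfatc3, and the dimmest of Ppp3r1 moved from -1.17 to -0.29 with normexp and loess. Each ratio pairs the genotypes within an array, so limma's test of the ratios was already paired, and with both arrays in 1 group no further block by replicate could be added. The slide could not be used as a block, since both arrays lie on 1 slide.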
